A study of Caenorhabditis elegans with 15 samples.

Results

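Short introns of C. elegans that can begin at either of 2 5′ splice sites exactly 4 nt apart were followed in 5 strains. An event was taken as a member when it was an alternative 5′ event with a value in all 15 libraries, its sites lay 4 nt apart and its intron was shorter than 100 nt when spliced from the upstream site. There were 2972 such members among 15261 alternative 5′ events scored in all 15 libraries, and 188 further events of the same shape lacked a value in at least 1 library. A distance of 4 nt was the most frequent one. It was found in 4205 events, ahead of 1 nt in 3490, 2 nt in 1047, 3 nt in 933 and 5 nt in 845.

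A 5′ splice site marks where an intron begins. It pairs first with U1 snRNA and is then handed to U6 snRNA as the spliceosome is activated, and KIN17 and PRCC are proteins of the spliceosome around that step. In a worm intron that begins with the consensus /GUAAGU, the bases at +5 and +6 are themselves a GU, so another possible intron start lies 4 nt inside the first. Moving between these starts adds 4 nt to the message, which shifts its reading frame, and messages with a premature stop are normally removed by nonsense-mediated decay (NMD).

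All 5 strains carried smg-4(az152), which disables NMD, so that frame-shifted messages could be seen. The smg-4 control had no other listed mutation. KIN17(K23N) carried dxbp-1(az121) with unc-73(e936az30), and KIN17(M107I) carried dxbp-1(az52) with unc-73(az63), so the KIN17 strains differed from the control at unc-73 too. PRCC(I371F) carried the point mutation prcc-1(az122), and PRCC(null) carried prcc-1(gk5556), a deletion of the coding region. Polyadenylated RNA of mixed-stage whole worms grown at 20C was sequenced from 3 separate RNA isolations of each strain. In bulk RNA of mixed stages, a change of splicing and a change in which cells or stages supply the message cannot be told apart. Library numbers ran from 1 to 9 in a set that held PRCC(I371F), the control and KIN17(K23N), and from 24 to 29 in a set that held PRCC(null) and KIN17(M107I). Strain and numbered set therefore cannot be told apart where KIN17(M107I) or PRCC(null) is set against the control, or PRCC(null) against PRCC(I371F). The label of KIN17(M107I) was checked at unc-73, at a pair of 5′ sites 23 nt apart. The downstream site there took 73.3%, 100% and 84% in the 3 KIN17(M107I) libraries and 0 in every other library, so this pair does not check the labels of the other strains.

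The measurement is percent spliced in (PSI), here the percentage of an event's messages that used the downstream of the 2 sites. A higher PSI thus means a shorter intron. No read numbers accompany the values. The depth behind a single event is therefore unknown, and PSI is given without a counting interval.

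The base sequence at the sites is shown for 6 members. They are shown because the spacing of the intron starts can be read in them. Each line runs 5′ to 3′ from the first base of the upstream intron start, in the sense of the message written as DNA, and capitals mark the first 2 intron bases at each of the 2 sites.
prx-19: GTaaGTtttaaat
nhr-142: GTaaGTacataat
K08F8.3: GTgaGTttttctg
exos-9: GTtcGTtagtttt
F09E5.8: GTtaGTtctgatg
F40A3.1: GCagGTaattcaa
In 5 of these 6 members both introns begin with GU. In F40A3.1 the upstream intron begins with GC and the downstream one with GU, and this member was the only one of the 6 in which the downstream site was the main one. All positions below are in WS220/ce10, and a site is given by the last base of its exon. On the minus strand of chromosome III, prx-19 had its upstream site at 8809111 and its downstream site at 8809107, and exos-9 at 7197797 and 7197793. On the minus strand of chromosome V, nhr-142 had them at 5787724 and 5787720, and on the minus strand of chromosome II K08F8.3, which RefSeq names fut-1, had them at 8757145 and 8757141. On the plus strands, F09E5.8 had them at 5351028 and 5351032 of chromosome II, and F40A3.1 at 7894540 and 7894544 of chromosome V. Each lies at the 5′ end of an intron in the named gene. Whether the exons are coding or untranslated is not given with the events.

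Most members used the upstream site nearly alone. The mean PSI over the 15 libraries was under 1% in 1680 members (56.5%) and from 1% to 5% in 708 (23.8%). At the other end, it was 99% or more in 198 members (6.66%). Only 96 members had a mean from 10% to 50% and 51 one from 50% to 90%. Taking the site with the higher mean as the main one, the upstream site was main in 2581 members and the downstream site in 391. Between 2 libraries of the same strain, PSI differed on average over the members by 1.18 to 2.11 percentage points, and between libraries of different strains by 1.37 to 2.62, so that these ranges overlapped.

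The 5 members nearest to equal use were chosen among the 50 whose PSI stayed between 10% and 90% in every library. At event A5.005134 on chromosome II, with sites at 7101073 and 7101069 and an intron of 47 nt, PSI was 46.6%, 51.5% and 54.4% in the control, 42.0%, 47.1% and 44.5% in PRCC(I371F) and 41.8%, 43.6% and 39.4% in PRCC(null). All 3 PRCC(null) libraries lay below the control there, with a mean difference of -9.20 points (limma adjusted p = 0.187). At event A5.000886 on chromosome I, with sites at 4186714 and 4186718 and an intron of 57 nt, PSI was 45.6%, 51.7% and 57.5% in the control, 37.8%, 44.1% and 51.6% in PRCC(I371F) and 59.6%, 64.2% and 68.8% in PRCC(null). The PRCC(null) libraries lay above the control at this event, by 12.6 points on average (limma adjusted p = 0.133). The other 3 were event A5.006990 on chromosome III, event A5.012073 on chromosome IV and event A5.016702 on chromosome V. The control libraries overlapped those of PRCC(null) at the first 2 of these and lay above them at A5.016702, with a mean difference of -8.61 points (limma adjusted p = 0.362).

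The question put to the members was whether mutations in KIN17 or PRCC move splicing between sites 4 nt apart. In both PRCC strains the less-used site was used more. In the 2581 members with the upstream site main, mean use of the downstream site was 1.37%, 1.40% and 1.33% in the control libraries, 2.38%, 2.46% and 2.50% in PRCC(I371F) and 2.57%, 2.59% and 2.73% in PRCC(null). The KIN17 strains lay in between, at 1.66%, 1.70% and 1.75% in KIN17(K23N) and 1.69%, 1.74% and 1.65% in KIN17(M107I). No library of a mutant strain fell within the range of the control, and no PRCC library fell within the range of a KIN17 strain. Use also rose over the 9281 of all 15261 events with the upstream site main. Its mean there was 3.09% in the control, 4.75% in PRCC(I371F), 5.44% in PRCC(null), 3.50% in KIN17(K23N) and 3.38% in KIN17(M107I). In the 391 members with the downstream site main, mean use of the upstream site was 4.08% ± 0.262 (SD, n = 3) in the control, 4.79% ± 0.171 in PRCC(I371F) and 4.81% ± 0.187 in PRCC(null). The libraries of the PRCC strains lay above the control there too, whereas KIN17(K23N) at 4.17% ± 0.617 and KIN17(M107I) at 4.25% ± 0.276 overlapped it. These means share their members between strains, and the main site was set from all 15 libraries, so they are given as a description.

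The less-used site also went undetected less often in the mutant strains. Per library it stood at 0 in 29.6% to 30.9% of members in PRCC(null), 33.95% to 39.1% in PRCC(I371F), 53.5% to 58.3% in KIN17(M107I), 58.2% to 59.4% in KIN17(K23N) and 69.7% to 72.6% in the control. It was above 0 in all 3 libraries for 1341 members in PRCC(null) (45.1%), 1127 in PRCC(I371F) (37.9%), 627 in KIN17(M107I) (21.1%), 612 in KIN17(K23N) (20.6%) and 425 in the control (14.3%). The order of the strains was the same over all 15261 events, with 18.5% in the control, 36.1% in PRCC(I371F) and 43.7% in PRCC(null). The number of alternative 5′ events that had a value moved with it. It was 19278 to 19366 per library in PRCC(null), 18987 to 19196 in PRCC(I371F), 18539 to 18726 in KIN17(M107I), 18385 to 18577 in KIN17(K23N) and 18300 to 18485 in the control. Read depth per event is not given, and its part in the share of members at 0 was not tested. Events were taken from introns with reads summed over all samples, so a less-used site seen only in mutant libraries could still make a member. It was at 0 in all 3 libraries for 1588 members (53.4%) in the control and 237 (7.97%) in PRCC(null). Part of these differences could thus be set by how members entered, which was not tested. Members with more than 5% use of the less-used site numbered 398 to 404 per library in PRCC(null), 354 to 395 in PRCC(I371F), 258 to 266 in KIN17(M107I), 238 to 265 in KIN17(K23N) and 211 to 226 in the control. Over all 15261 events this count was 3348 to 3432 in PRCC(null), 2986 to 3160 in PRCC(I371F) and 2061 to 2144 in the control. It was 2270 to 2321 in KIN17(M107I) and 2136 to 2280 in KIN17(K23N). A single read can exceed 5% where depth is low, so this count does not set depth aside.

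**Figure D1:**
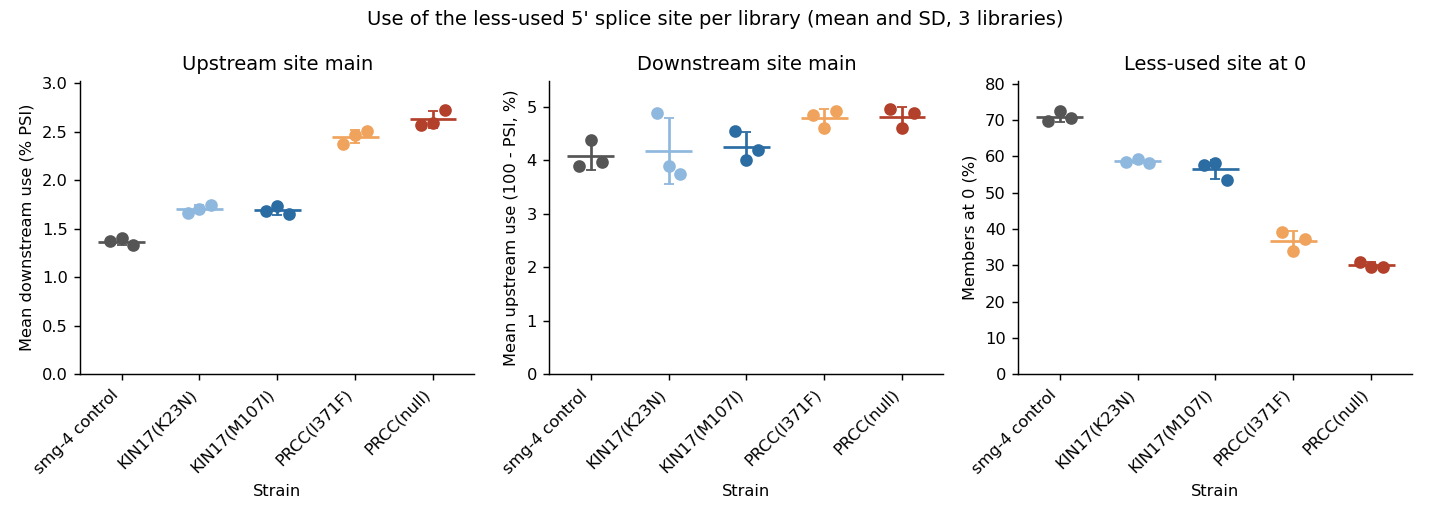
Each point is 1 library, with the mean (wide line) and SD (whiskers) of the 3 libraries of a strain. The left and middle panels plot the mean use of the less-used site in percent for members with the upstream or the downstream site main, and the right panel the percentage of members whose less-used site was at 0. In the left panel the PRCC libraries sit between 2.38% and 2.73% and the control libraries between 1.33% and 1.40%.

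As a description only, the rise was largest in proportion where the less-used site was rarest. Among the 1878 members whose mean use of it was under 1%, that use was 0.123% ± 0.00950 in the control, 0.547% ± 0.0273 in PRCC(I371F) and 0.753% ± 0.00969 in PRCC(null) (SD, n = 3). In the 817 members from 1% to 5% it was 1.13% ± 0.0174 in the control, 2.99% ± 0.210 in PRCC(I371F) and 3.21% ± 0.139 in PRCC(null). In the 72 members at 20% or more it was 33.2% ± 1.66 in the control, 33.7% ± 2.75 in PRCC(I371F) and 32.8% ± 1.12 in PRCC(null), and the libraries overlapped. The bins were formed on the same values they summarise, as the mean over all 15 libraries with the mutant strains included. A less-used site at 0 in the control could be in the lowest bin only through reads of the other strains. The larger proportion there could thus be set by how members entered, and no result is drawn from it.

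Over single events, limma was fitted to all 15261 events and its p-values were adjusted over all of them. At an adjusted p under 0.05 with no threshold on the size of the change, 448 members moved downstream (15.1%) and 26 upstream (0.875%) in PRCC(I371F) against the control, beside 11.3% of all events tested downstream and 2.41% upstream. In PRCC(null), 728 members moved downstream (24.5%) and 41 upstream (1.38%), beside a background of 19.6% and 3.3%. Without matching for the main site, the members' share was thus above the background downstream and below it upstream in both PRCC strains. Of the members called in either direction, 94.5% in PRCC(I371F) and 94.7% in PRCC(null) moved downstream, and over all events these shares were 82.4% and 85.6%. The upstream site was main in 2581 members and the downstream site in 391, beside 9281 and 5980 of all events. A PSI near 0 can hardly move upstream. Of the downstream calls, 445 in PRCC(I371F) and 722 in PRCC(null) were in members with the upstream site main. The shares by direction were not matched for the main site, and members could enter through reads of the mutant strains. No result is drawn from the excess of these shares over all events. Among the 391 members with the downstream site main, 19 moved upstream and 3 downstream in PRCC(I371F), and 27 and 6 in PRCC(null). The shifts were small. The median size of a called change was 1.99 percentage points in PRCC(I371F) and 1.86 in PRCC(null). Both comparisons used the same control libraries. Of the 474 members called in PRCC(I371F) and the 769 called in PRCC(null), 280 were called in both, which is 59.1% and 36.4% of each list, and all 280 moved the same way.

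In the KIN17 strains few members were called. In KIN17(K23N) 6 members moved downstream (0.202%) and 1 upstream (0.0336%), beside 0.472% and 0.144% of all events. In KIN17(M107I) 9 (0.303%) and 2 (0.0673%) did, beside 0.524% and 0.17%, so the members' shares were below the background in both KIN17 strains. With any 1 library left out the downstream counts were 0 to 5 and 1 to 5, lowest at 0 in KIN17(K23N) without control replicate 1 or 2 and at 1 in KIN17(M107I) without control replicate 2, and with other pseudocounts or only the 6 libraries compared they were 0 to 16 and 4 to 18. Unadjusted limma p-values under 0.05 were found for 205 and 169 members, against 872 in PRCC(I371F) and 1127 in PRCC(null). Some p-values under 0.05 arise without any change, and the share over all 15261 events was not counted. No result is drawn from these counts. The median difference over all 2972 members was 0.488 points in PRCC(null), 0.347 in PRCC(I371F), 0.0178 in KIN17(M107I) and 0.0130 in KIN17(K23N), and over all 15261 events it was 0.302, 0.149, 0 and 0. Within each numbered set the PRCC strain could be tested directly against the KIN17 strain. PRCC(I371F) lay downstream of KIN17(K23N) in 285 members and upstream in 20, beside 8.02% and 1.68% of all events. PRCC(null) lay downstream of KIN17(M107I) in 588 and upstream in 37, beside 16.3% and 2.33%, and a fit of the 6 libraries compared gave 388 and 24. These members made up 9.59% and 0.673% of all members in the first comparison and 19.8% and 1.24% in the second.

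**Figure D2:**
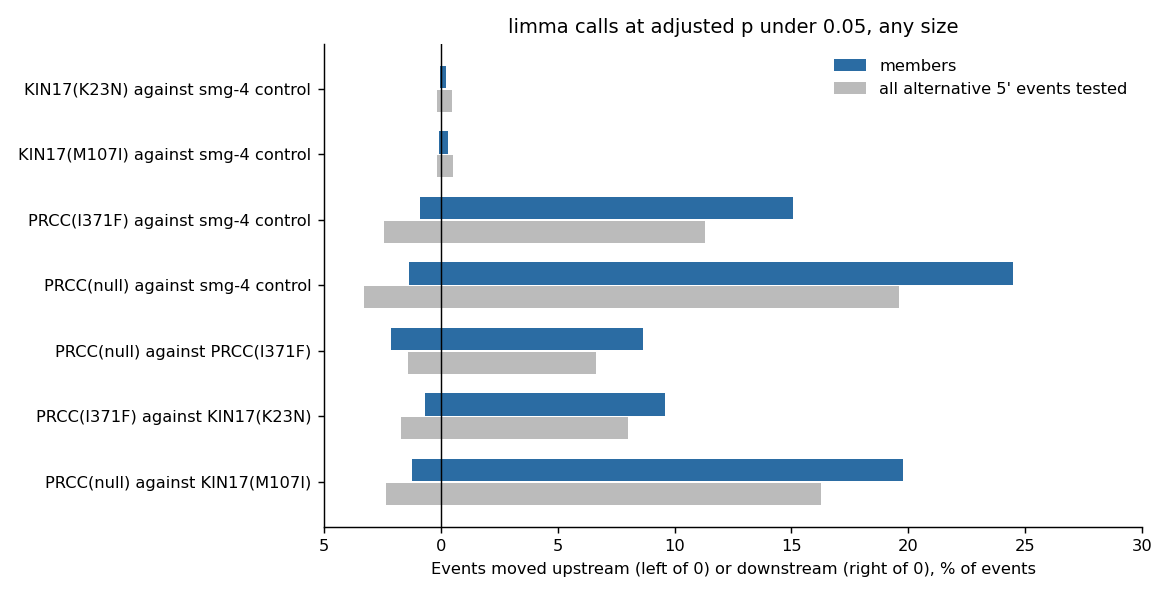
Bars give the percentage of events that limma called at an adjusted p under 0.05, to the right of 0 for a move downstream and to the left for a move upstream, for the 2972 members and for all 15261 events. The members reach 24.5% downstream in PRCC(null) against the control and 15.1% in PRCC(I371F), and stay near 0 in the KIN17 strains.

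The PRCC strains differed from each other according to the length of the intron. The members' introns were 39 to 99 nt long with a median of 52 nt, and were grouped into 6 classes of length. The lengths were given with the events and do not depend on PSI, but the classes were set with the values known. In PRCC(null) against the control, the share of members moved downstream was 2 of 72 (2.78%) at 39 to 45 nt, 88 of 1056 (8.33%) at 46 to 50 nt and 291 of 1068 (27.2%) at 51 to 55 nt. It was 202 of 401 (50.4%) at 56 to 60 nt, 98 of 237 (41.4%) at 61 to 70 nt and 47 of 138 (34.1%) at 71 to 99 nt. Longer introns in this range were thus called more often, up to 60 nt. In PRCC(I371F) the same shares were 11.1%, 12.8%, 17.9%, 17.0%, 16.0% and 5.80%. They varied less and were lowest in the longest class.

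Use of the downstream site in the libraries also differed between the PRCC strains by intron length, but did not track the called shares in every class. At 46 to 50 nt, in the 916 members with the upstream site main, it was 1.71% to 1.91% in the control libraries, 2.57% to 2.69% in PRCC(I371F) and 2.19% to 2.35% in PRCC(null). At 56 to 60 nt, in 350 such members, it was 0.510% to 0.806% in the control, 1.85% to 2.18% in PRCC(I371F) and 2.77% to 3.33% in PRCC(null). The libraries of the PRCC strains did not overlap in either class, and their order was turned round between the classes. In the control, mean use of the downstream site fell from 1.83% ± 0.101 (SD, n = 3) at 46 to 50 nt to 1.22% ± 0.0763 at 51 to 55 nt, 0.644% ± 0.150 at 56 to 60 nt and 0.534% ± 0.147 at 61 to 70 nt. At 71 to 99 nt it was higher again, at 2.09% ± 0.475 in 118 members. In PRCC(null) it was 2.26% ± 0.0835, 2.59% ± 0.0913, 3.11% ± 0.301, 2.85% ± 0.230 and 3.92% ± 0.316 in these 5 classes, and the libraries lay above the control in each of them. The KIN17(K23N) libraries overlapped the control at 56 to 60 nt (0.824% ± 0.190) and at 61 to 70 nt (0.695% ± 0.0359), whereas KIN17(M107I) lay above it in both classes (1.12% ± 0.236 and 1.10% ± 0.139).

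**Figure D3:**
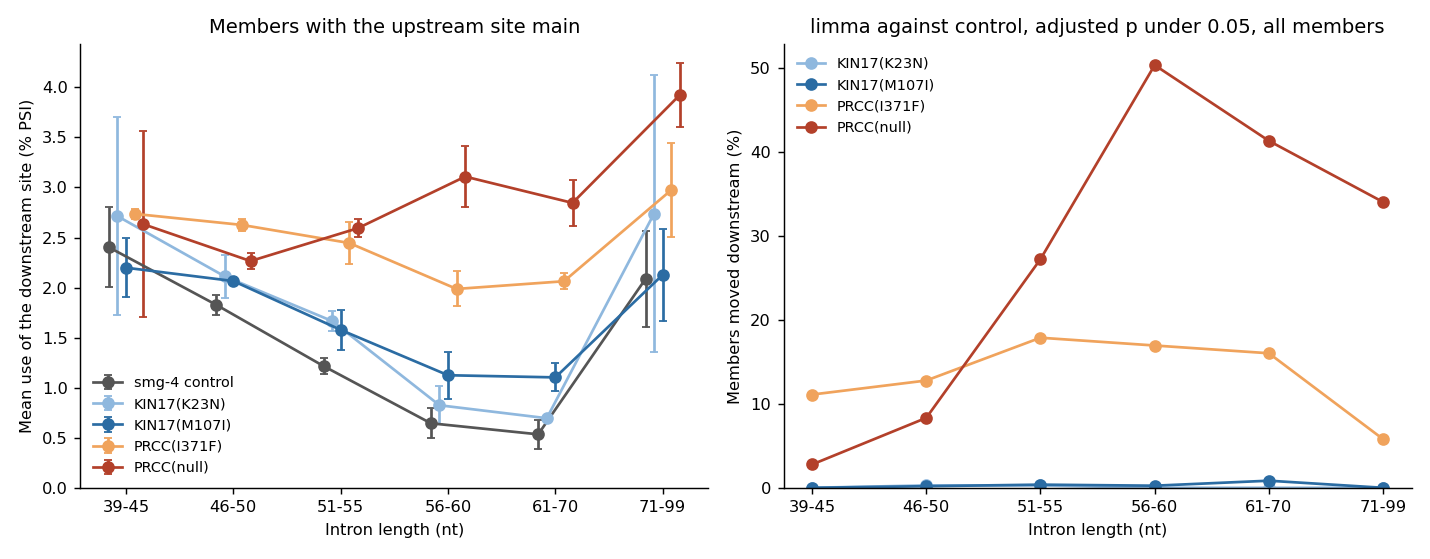
The left panel plots, for members with the upstream site main, the mean use of the downstream site in percent against intron length in nt, with the SD of 3 libraries as whiskers. The right panel plots the percentage of all members in each length class that limma called downstream against the control. PRCC(null) rises to 50.4% at 56 to 60 nt, where PRCC(I371F) stands at 17.0% and the KIN17 strains stay under 1%.

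The difference between the PRCC strains was tested by limma in PRCC(null) against PRCC(I371F). Over all members 257 lay downstream in PRCC(null) and 63 upstream (8.65% and 2.12%), beside 6.66% and 1.42% of all events. At 46 to 50 nt 7 members lay downstream and 33 upstream, with a median difference of -0.11 points over all 1056. At 56 to 60 nt 105 lay downstream and 3 upstream, with a median difference of 0.68 points over all 401. With only the 6 libraries of these strains in the fit, the calls fell to 22 downstream and 14 upstream, of which 3 and 8 were in introns of 39 to 50 nt and 15 and 2 in introns of 56 to 99 nt. The numbered sets cannot be told apart from the strains in this comparison. PRCC(null) against KIN17(M107I), which lies within the set numbered 24 to 29, had 55 of 1056 members downstream at 46 to 50 nt (5.21%) and 189 of 401 at 56 to 60 nt (47.1%). PRCC(I371F) against KIN17(K23N), within the set numbered 1 to 9, had 82 (7.77%) and 49 (12.2%). Within each set these length classes therefore stood in the same order as against the control.

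Introns of 100 nt or more with the same spacing of sites continued this contrast. Of 1233 such events, 530 moved downstream in PRCC(null) (43.0%) and 91 in PRCC(I371F) (7.38%). In PRCC(null) against PRCC(I371F), 314 of them lay downstream (25.5%) and 6 upstream (0.487%). Short introns with sites 1 nt apart also moved mostly downstream, with a larger part upstream. Of 2151 such events, 459 moved downstream and 173 upstream in PRCC(I371F) (21.3% and 8.04%), and 461 and 172 in PRCC(null) (21.4% and 7.996%). The downstream site was main in 995 of these 2151 events, against 391 of the 2972 members. Short introns with sites 5 nt apart were called less often, with 19 of 520 downstream in PRCC(I371F) (3.65%) and 47 in PRCC(null) (9.04%). No test was made between these classes of events.

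Large shifts were rare among the members. An event passed the pairwise rule when each of the 9 differences between single libraries of 2 strains exceeded 15 points with the same sign and the mean difference exceeded 20 points. In PRCC(I371F) 15 members passed it, 9 downstream and 6 upstream, beside 1.31% of all events, and in PRCC(null) 8 passed, 3 downstream and 5 upstream, beside 1.55%. That is 0.505% and 0.269% of the members, below the background in both strains. Where limma was also required to show an average difference over 20 points, 13 members were called in PRCC(I371F), beside 1.23% of all events, and 10 in PRCC(null), beside 1.59%. The pairwise rule and limma with that threshold shared 13 members in PRCC(I371F) and 6 in PRCC(null). Of the members past the pairwise rule, 6 were common to both PRCC strains, and all 6 moved the same way. In the KIN17 strains 2 members (0.0673%) passed the rule in KIN17(K23N), beside 0.328%, and 1 (0.0336%) in KIN17(M107I), beside 0.374%. With limma the counts were 0 in KIN17(K23N) and 2 in KIN17(M107I), beside 0.0983% in each strain.

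The named genes among these members were listed by the study from these same samples, so their direction is no independent evidence. The PRCC strains are described first in prx-19, whose product carries newly made membrane proteins to the peroxisome. At its intron of 68 nt the downstream site was used at 0.370%, 0.224% and 0% in the control, 32.8%, 28.8% and 26.8% in PRCC(I371F) and 23.3%, 19.8% and 24.04% in PRCC(null). It was used at 2.45%, 2.56% and 1.33% in KIN17(K23N) and at 3.22%, 3.77% and 2.22% in KIN17(M107I). Every mutant library lay above every control library. The mean difference from the control was 29.3 points in PRCC(I371F) (log2 5.17, SE 0.30, limma adjusted p = 2.26e-06) and 22.2 points in PRCC(null) (log2 4.65, SE 0.30, limma adjusted p = 1.13e-06). In KIN17(M107I) it was 2.87 points (limma adjusted p = 0.0183, and 0.057 to 0.075 without control replicate 2 or 3 or KIN17(M107I) replicate 1 or 2). In KIN17(K23N) it was 1.92 points (limma adjusted p = 0.0809, and 0.0207 with a pseudocount of 0.001). The log2 values are on the logit scale of limma.

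In nhr-142, a gene of the nuclear hormone receptor family, the PRCC strains separated. At its intron of 51 nt PSI was 5.26%, 11.9% and 6.82% in the control, 41.0%, 46.3% and 44.7% in PRCC(I371F) and 5.88%, 14.8% and 14.6% in PRCC(null). The PRCC(null) libraries overlapped the control and the PRCC(I371F) libraries lay above both. PRCC(null) lay below PRCC(I371F) by 32.2 points (limma adjusted p = 0.013), the only member called with a difference over 20 points in that comparison, beside 0.216% of all events. The KIN17 strains were at 25%, 45% and 15.8% in KIN17(K23N) and 30.8%, 34.6% and 22.2% in KIN17(M107I), above the control in every library, with differences of 20.6 and 21.2 points (limma adjusted p = 0.199 and 0.151).

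Of the genes on chromosome I, F10D11.2 has an intron of 70 nt at this pair of sites, and fasn-1, which encodes fatty acid synthase, has one of 55 nt. In F10D11.2 PSI was 0 in the 3 control libraries, 32.0%, 44.6% and 43.7% in PRCC(I371F) and 13.3%, 23.6% and 20.3% in PRCC(null). In fasn-1 it was 0 in the 3 control libraries, 29.2%, 25.7% and 31.0% in PRCC(I371F) and 17.9%, 16.0% and 17.6% in PRCC(null). In both genes the 3 strains did not overlap, with PRCC(I371F) highest. The difference of PRCC(I371F) from the control was 40.1 points in F10D11.2 (limma adjusted p = 1.87e-05) and 28.6 points in fasn-1 (limma adjusted p = 1.59e-05). That of PRCC(null) was 19.1 and 17.2 points (limma adjusted p = 4.84e-05 and 2.07e-05). KIN17(M107I) was at 8.39%, 4% and 5.26% in F10D11.2 and 0.943%, 2% and 3.91% in fasn-1 (limma adjusted p = 0.0297 and 0.188). Its call in F10D11.2 was lost whichever single library was left out, with adjusted p of 0.0589 to 0.122. KIN17(K23N) was at 0%, 3.125% and 1.95% in F10D11.2 and 0%, 0% and 1.79% in fasn-1. PRCC(null) differed from PRCC(I371F) by -21.1 points in F10D11.2 (limma adjusted p = 0.115) and by -11.4 points in fasn-1 (limma adjusted p = 0.292), and both passed only with a pseudocount of 0.05 (limma adjusted p = 0.0131 and 0.0261).

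The shorter introns of exos-9 and K08F8.3 had the downstream site in use in the control already. In exos-9, which encodes a subunit of the RNA exosome, the intron is 50 nt long and PSI was 19.3%, 17.3% and 17.4% in the control, 37.8%, 34.8% and 36.0% in PRCC(I371F) and 26.4%, 24.5% and 26.3% in PRCC(null). PSI there was 20.7%, 14.8% and 19.5% in KIN17(K23N) and 16.1%, 17.6% and 13.7% in KIN17(M107I), which overlapped the control. PRCC(I371F) rose by 18.2 points (limma adjusted p = 0.00428), under the 20 points of the rule, and PRCC(null) stood 7.71 points above the control (limma adjusted p = 0.106). In K08F8.3 (fut-1), whose product adds fucose to glycans, the intron is 51 nt long and PSI was 4.62%, 1.89% and 3.57% in the control, 19.6%, 28.6% and 29.9% in PRCC(I371F) and 11.1%, 26.7% and 9.52% in PRCC(null). KIN17(K23N) was at 17.6%, 10% and 34.6% and KIN17(M107I) at 22.9%, 6.25% and 12.2%. Every mutant library of K08F8.3 lay above the control, and the difference of 22.7 points in PRCC(I371F) passed limma (adjusted p = 0.00909). In PRCC(null) it was 12.4 points (limma adjusted p = 0.0455), and without any single library other than PRCC(null) replicate 3 the adjusted p was 0.0605 to 0.16, with a difference of 6.96 points without PRCC(null) replicate 2.

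F40A3.1, with a GC at the upstream intron start, moved the other way. At its intron of 47 nt PSI was 100%, 97.9% and 100% in the control, 74.2%, 82.5% and 70.9% in PRCC(I371F) and 92.9%, 93.5% and 92.2% in PRCC(null). The KIN17 libraries stood at 97.0% or more. The PRCC libraries lay below the control, so that the GC site was used more. The difference was -23.4 points in PRCC(I371F) (limma adjusted p = 0.000245) and -6.47 points in PRCC(null) (limma adjusted p = 0.00484). F09E5.8 was chosen after its values were seen, because its upstream site is also 1 nt from another listed intron start. PSI at its pair 4 nt apart was 0 in the control, 3.36%, 3.09% and 2.40% in PRCC(I371F) and 7.35%, 3.55% and 2.70% in PRCC(null), with differences of 2.95 points (limma adjusted p = 0.0216) and 4.54 points (limma adjusted p = 0.00437). The gene frm-4 on chromosome I was chosen in the same way and did not move. Its PSI was 0%, 0.787% and 1.20% in the control, 2.84%, 1.04% and 0% in PRCC(I371F) and 0.990%, 0.538% and 0.474% in PRCC(null). The libraries overlapped there (limma adjusted p = 0.759 in PRCC(I371F) and 0.981 in PRCC(null)).

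**Figure D4:**
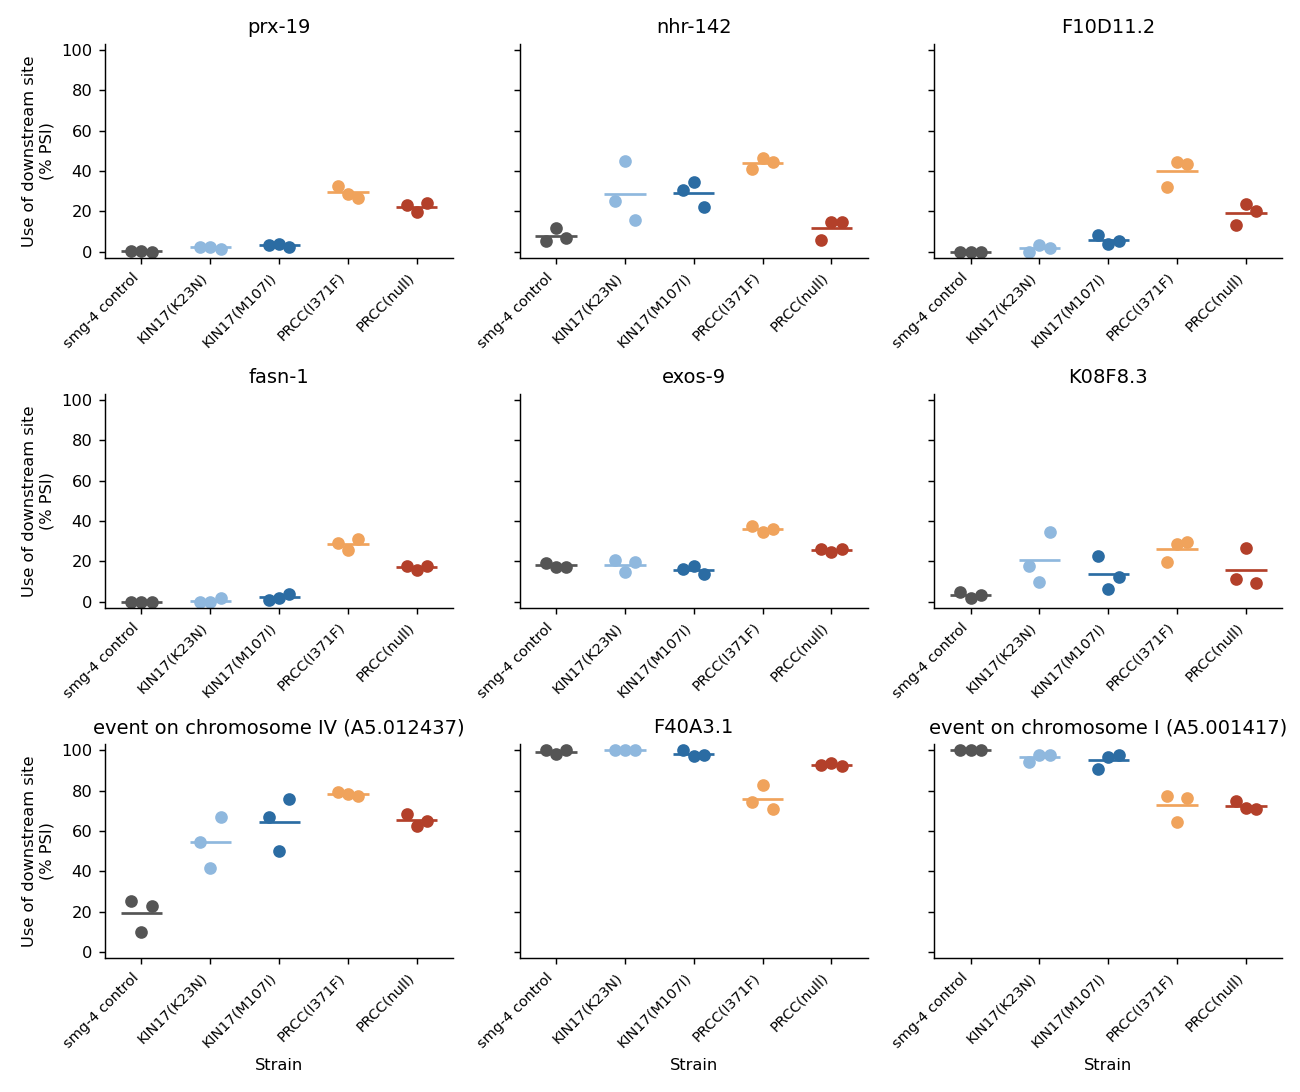
Each panel plots PSI in percent, the use of the downstream site, in the 15 libraries for 1 member, with a point per library and a line at the mean of each strain. prx-19 stands at 26.8% to 32.8% in PRCC(I371F) and at 19.8% to 24.04% in PRCC(null), while in nhr-142 the PRCC(null) libraries lie at 5.88% to 14.8%, among those of the control.

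Members without a gene name in the sources used here are given by position. The member with the broadest change was event A5.012437 on the plus strand of chromosome IV, with sites at 7924511 and 7924515 and an intron of 53 nt. Its PSI was 25%, 10% and 22.7% in the control, 79.5%, 78.5% and 77.1% in PRCC(I371F) and 68.2%, 62.4% and 65.0% in PRCC(null). KIN17(K23N) was at 54.5%, 41.7% and 66.7% and KIN17(M107I) at 66.7%, 50% and 75.9%. Every mutant library lay above every control library, and it passed the pairwise rule in all 4 mutant strains. The differences were 59.1 points in PRCC(I371F) (limma adjusted p = 0.000388), 45.97 points in PRCC(null) (limma adjusted p = 0.0012), 44.9 points in KIN17(M107I) (limma adjusted p = 0.0242) and 35.1 points in KIN17(K23N) (limma adjusted p = 0.0918). In KIN17(M107I) the call was lost without control replicate 2 or 3 or KIN17(M107I) replicate 1 or 3, with adjusted p from 0.0516 to 0.088.

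Events A5.001417, A5.004284 and A5.012530 moved away from the downstream site in both PRCC strains. Event A5.001417 lies on chromosome I with sites at 5979421 and 5979425 and an intron of 55 nt, and its PSI was 100% in the 3 control libraries, 77.4%, 64.3% and 76.4% in PRCC(I371F) and 75%, 71.4% and 70.7% in PRCC(null). Event A5.004284 lies on chromosome II with sites at 3351848 and 3351852 and also an intron of 55 nt, and its PSI was 100% in the 3 control libraries, 68.8%, 80% and 73.9% in PRCC(I371F) and 72.2%, 82.4% and 73.3% in PRCC(null). In both events the PRCC strains overlapped each other and lay below the control. The changes were -27.3 and -27.6 points at A5.001417 (limma adjusted p = 2.96e-05 and 9.54e-06) and -25.8 and -24.03 points at A5.004284 (limma adjusted p = 0.000912 and 0.000558) in PRCC(I371F) and PRCC(null). At event A5.012530 on chromosome IV, with sites at 8266123 and 8266127 and an intron of 47 nt, PSI was 80%, 100% and 100% in the control, 35.7%, 0% and 30.8% in PRCC(I371F) and 22.2%, 50% and 36.8% in PRCC(null). Its difference was -71.2 points in PRCC(I371F) (limma adjusted p = 0.0165) and -57.0 points in PRCC(null) (limma adjusted p = 0.0478). Without control replicate 2, control replicate 3 or PRCC(I371F) replicate 2 the adjusted p was 0.0606 to 0.0695 in PRCC(I371F), and in PRCC(null) it was 0.0734 to 0.153 without any single library other than control replicate 1.

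Other members were past both calls in PRCC(I371F) alone or in PRCC(null) alone. Event A5.004903 on chromosome II, with sites at 6344290 and 6344294 and an intron of 61 nt, was at 0 in the control, at 28.9%, 20% and 22.2% in PRCC(I371F) and at 7.69%, 10.5% and 16.7% in PRCC(null) (limma adjusted p = 0.00592 in PRCC(I371F)). Event A5.020257 on chromosome X, with sites at 13844274 and 13844278 and an intron of 52 nt, was at 0%, 12.9% and 0% in the control at 43.8%, 66.7% and 31.6% in PRCC(I371F) (limma adjusted p = 0.0351) and at 25%, 0% and 33.3% in PRCC(null), which overlapped the control. The call at A5.020257 was lost without any single library other than control replicate 2, with adjusted p of 0.0512 to 0.131. Event A5.011714 on chromosome IV, with sites at 4431628 and 4431632 and an intron of 49 nt, was at 40%, 42.9% and 61.5% in the control, 13.3%, 0% and 0% in PRCC(I371F) and 12.5%, 17.4% and 21.1% in PRCC(null). Its call in PRCC(I371F) (limma adjusted p = 0.0389) was lost without any single library other than PRCC(I371F) replicate 1, with adjusted p of 0.0809 to 0.13, and in PRCC(null) the adjusted p was 0.377. Event A5.012922 on chromosome IV, with sites at 9366371 and 9366367 and an intron of 69 nt, was at 0 in the control, at 20%, 21.4% and 0% in PRCC(I371F) and at 26.7%, 23.5% and 18.6% in PRCC(null) (limma adjusted p = 0.00745 in PRCC(null)). Libraries of the strain called did not overlap the control at any of these 4 events.

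Some members passed the pairwise rule without passing limma. In PRCC(I371F) they were event A5.004150 on chromosome II, at 0 in the control and at 44.4%, 50% and 27.3% in PRCC(I371F) (limma adjusted p = 0.0528), and event A5.009662 on chromosome III, at 69.2%, 58.3% and 62.5% in the control and 14.3%, 33.3% and 30.8% in PRCC(I371F) (limma adjusted p = 0.414). In PRCC(null) they were A5.011714 and event A5.017632 on chromosome V, at 100% in the 3 control libraries and 69.2%, 71.4% and 50% in PRCC(null) (limma adjusted p = 0.244). The other strains spread widely at these events. KIN17(K23N) was at 0%, 75% and 25% at A5.009662, and PRCC(null) at 14.3%, 0% and 75% at A5.004150. In KIN17(K23N) the member other than A5.012437 was event A5.002006 on chromosome I, chosen after its values were seen, at 75%, 83.3% and 80% in the control and 42.9%, 42.9% and 40% in KIN17(K23N) (limma adjusted p = 0.921). In KIN17(M107I), event A5.014850 on chromosome V, also chosen after its values were seen, was called by limma at 0%, 0% and 2.5% in the control and 43.8%, 15.8% and 10% in KIN17(M107I) (limma adjusted p = 0.019, and 0.0522 to 0.0808 without control replicate 1 or 2 or KIN17(M107I) replicate 2). Without KIN17(M107I) replicate 1 its difference fell from 22.3 to 12.1 points. In PRCC(null) limma called 4 members that did not pass the pairwise rule, all chosen after their values were seen except A5.016923. Event A5.008649 on chromosome III was at 0 in the control and at 33.7%, 14.5% and 15.4% in PRCC(null) (limma adjusted p = 0.00343), and event A5.015573 on chromosome V at 0 in the control and at 28.6%, 8.33% and 66.7% in PRCC(null) (limma adjusted p = 0.0086). Their differences of 21.2 and 34.5 points came to 14.9 without PRCC(null) replicate 1 and to 18.5 without PRCC(null) replicate 3, below the 20 points of the call. Event A5.012306 on chromosome IV was at 63.9%, 67.5% and 73.3% in the control and at 86.0%, 87.5% and 92.9% in PRCC(null) (limma adjusted p = 0.00841), and its difference of 20.6 points came to 18.4 without control replicate 1 and 18.5 without PRCC(null) replicate 3. At event A5.016923 on chromosome V the control stood at 15.4%, 4.55% and 0% and PRCC(null) at 15%, 25% and 42.9%, which overlapped (limma adjusted p = 0.0362, and 0.0734 to 0.128 without control replicate 2 or 3 or PRCC(null) replicate 2 or 3), with a difference of 20.98 points, or 13.4 without PRCC(null) replicate 3.

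Direct comparisons of the strains passed few members. In PRCC(null) against PRCC(I371F) 3 passed the pairwise rule, beside 0.275% of all events: nhr-142, event A5.014163 on chromosome IV and event A5.018209 on chromosome V. At A5.014163 PSI was 0 in the 3 PRCC(I371F) libraries and 44.1%, 28.6% and 37.5% in PRCC(null), but 100%, 100% and 0% in the control (limma adjusted p = 0.342 between the PRCC strains). At A5.018209 it was 27.3%, 26.7% and 21.1% in PRCC(I371F) and 0 in the 3 PRCC(null) libraries (limma adjusted p = 0.0625). In PRCC(I371F) against KIN17(K23N) 8 members passed the rule, beside 0.793%, and limma called 10, beside 0.727%. The largest was event A5.014655 on chromosome V, at 100%, 75% and 100% in KIN17(K23N) and 0%, 40% and 0% in PRCC(I371F) (limma adjusted p = 0.00386), while the control, at 60%, 25% and 60%, overlapped PRCC(I371F). Values at A5.014655 were coarse fractions in every library, which a few reads could give, and its depth is unknown. Many values at A5.002006, A5.004150, A5.009662, A5.011714, A5.012530, A5.014163, A5.017632 and A5.018209 were coarse fractions too, so their large differences carry the same limit. In PRCC(null) against KIN17(M107I) 1 passed the rule, beside 0.944%, and limma called 4, beside 0.858%. The member past the rule was A5.001417, with a difference of -22.6 points (limma adjusted p = 0.00121). For any single member compared between 2 strains, an exact two-sided permutation test cannot give a p under 0.1 with 3 libraries against 3, so it cannot reach 0.05, and it gave 0.1 wherever the libraries did not overlap.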

How the data were processed

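Messenger RNA of 5 strains with 3 libraries each was sequenced as paired 75 nt reads. The authors aligned reads to WS220/ce10 with STAR modified to treat UU/AG introns like GU/AG introns, kept alternative 5′ events with ends no more than 50 nt apart and introns supported by 5 or more reads in total, and derived PSI with junctionCounts. Their notes also name cutadapt, Bowtie2 and SAMtools, with versions not given in the sources used here. The authors deposited a score per form of each event, which is PSI as a fraction times 1000. Scores of 1 and 999 were read as 0 and 100%, an assumption. Depth per event is unknown. Tables of annotated events were not used here.

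Strains were assigned from the genotype in the labels. PSI was compared by the pairwise rule of the study's methods without its browser inspection, and with limma 3.58.1 in R 4.3.3 on log2((PSI + 0.01)/(1 − PSI + 0.01)), with the trend and robust options, in 1 fit of 15 libraries and 15261 events with Benjamini-Hochberg adjustment. Single members were compared by exact two-sided permutation tests. The steps were tested on simulated data. The members, length classes and lists were chosen with earlier results of these data known. Named were members past both calls in a mutant strain (at most 12 per strain, by size), members the study listed with sites 4 nt apart, the 5 nearest to equal use, the 3 largest past the rule only in each PRCC strain, and up to 5 per direct comparison. Gene names and bases were copied from the study's list, matched by position within 3 nt. The replicates were separate RNA isolations. Alternatives were other thresholds, pseudocounts of 0.001 and 0.05, site pairs counted once, introns under 80 nt, fewer events or libraries in the fit, and leaving out each replicate.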

Additional observations from a re-analysis of the deposited data

Results flagged for a closer look

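Members were singled out where a direct limma test between mutant strains gave an adjusted p under 0.05 with a mean difference over 20 points. Between the PRCC strains this held for nhr-142 (A5.015310), at -32.2 points in PRCC(null) minus PRCC(I371F).

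In PRCC(I371F) minus KIN17(K23N) it held downstream for F10D11.2 (A5.002332) at 38.4 points, fasn-1 (A5.002518) at 28.03, A5.016923 at 27.7, prx-19 (A5.009351) at 27.4, A5.014775 at 21.9 and A5.004903 at 20.4. It held upstream for A5.014655 at -78.3 points, A5.011714 at -70.6, F40A3.1 (A5.015763) at -24.1 and A5.001417 at -23.7. Values at A5.014655, and many of those at A5.011714, were coarse fractions that a few reads could give.

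In PRCC(null) minus KIN17(M107I) it held for A5.016923 at 27.6 points, A5.018209 at -25.6, A5.001417 at -22.6 and A5.004284 at -20.7. At A5.016923, on chromosome V, PSI was 0 in all 6 KIN17 libraries and 14.7% to 42.9% in the 6 PRCC libraries, with 15.4%, 4.55% and 0% in the control. A5.014775 was not refitted with libraries left out. Of the other members, A5.004903 lost its call without any single library other than KIN17(K23N) replicate 3 (adjusted p of 0.0729 to 0.142) and A5.018209 without any single library other than KIN17(M107I) replicate 1 (0.0814 to 0.115). The adjusted p of the rest stayed under 0.05, but the mean difference no longer exceeded 20 points for A5.001417 against KIN17(K23N) without PRCC(I371F) replicate 2 (-19.5), for A5.016923 against KIN17(M107I) without PRCC(null) replicate 3 (20), and for A5.004284 without KIN17(M107I) replicate 1 or 2 or PRCC(null) replicate 1 or 3 (-18.8 at the least).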

How the results depend on the processing

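For the members past the pairwise rule, a smallest difference of 10 points gave 3 in KIN17(M107I) against the control and 3 in PRCC(null) against KIN17(M107I). A smallest difference of 20 points gave 1 in KIN17(K23N), 4 in PRCC(null) and 0 in PRCC(null) against KIN17(M107I), where no threshold on the mean gave 2. Introns under 80 nt and site pairs counted once left every count by the rule within 1.5 times. With 1 library left out the counts were 2 to 5 in KIN17(K23N), 2 to 6 in KIN17(M107I), 17 to 20 in PRCC(I371F) and 8 to 14 in PRCC(null) against the control, 4 to 9 in PRCC(null) against PRCC(I371F), 11 to 14 in PRCC(I371F) against KIN17(K23N) and 2 to 10 in PRCC(null) against KIN17(M107I), since fewer pairs then have to pass.

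For limma with a difference over 20 points, a pseudocount of 0.05 gave 1 member in KIN17(M107I) and 2 in PRCC(null) against PRCC(I371F), and a fit of the 6 libraries compared gave 0 and 2. Without the threshold the counts in both directions were 7 and 11 in KIN17(K23N) and KIN17(M107I), 474 and 769 in PRCC(I371F) and PRCC(null), 320 in PRCC(null) against PRCC(I371F), 305 in PRCC(I371F) against KIN17(K23N) and 625 in PRCC(null) against KIN17(M107I). With 1 library left out the counts over 20 points were 0 to 1, 0 to 2, 11 to 15 and 8 to 14 in the 4 mutant strains in the order of the comparisons above, and 1 to 3, 9 to 10 and 3 to 6 in the direct comparisons. The cause of these changes was not tested.

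Alternatives for the intron classes were chosen after seeing the data. Members moved downstream in PRCC(null) numbered 82 to 104 at 39 to 50 nt and 281 to 361 at 56 to 99 nt with other pseudocounts or 6 libraries, and 59 to 92 and 290 to 354 with 1 library left out. In PRCC(I371F) they numbered 121 to 143 and 90 to 133, and 92 to 152 and 80 to 128. The lowest counts at 39 to 50 nt came without control replicate 3 in PRCC(null) and without control replicate 2 in PRCC(I371F). Members moved upstream fell from 41 to 25 in PRCC(null) without control replicate 2, and from 37 to 23 in PRCC(null) against KIN17(M107I) without PRCC(null) replicate 3. With other pseudocounts or 6 libraries the counts downstream and upstream were 388 to 563 and 24 to 37 in that comparison, and 205 to 265 and 15 to 23 in PRCC(I371F) against KIN17(K23N). Differences that changed sign when a library was left out were those of exos-9 in KIN17(K23N) (-0.826 to 2.10 points, below 0 without KIN17(K23N) replicate 1 or 3) and of K08F8.3 in PRCC(I371F) against KIN17(K23N) (-0.110 to 12.2, below 0 without KIN17(K23N) replicate 2) and in PRCC(null) against KIN17(M107I) (-3.45 to 6.54, below 0 without replicate 2 of either strain), none of them called. With a pseudocount of 0.001 calls were lost at A5.011714 and A5.020257 in PRCC(I371F) (limma adjusted p = 0.0574 and 0.0525), at A5.012530 and A5.016923 in PRCC(null) (0.0713 and 0.0642) and at A5.004903 in PRCC(I371F) against KIN17(K23N) (0.079). With 0.05 they were lost at prx-19, A5.014850 and F10D11.2 in KIN17(M107I) (0.221, 0.0808 and 0.196) and at K08F8.3 in PRCC(null) (0.0855). No paired analysis was possible because the labels give the strains no shared replicate numbers.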

Other observations

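Some members share a site with another alternative 5′ event of the same intron. This held for 701 of the 2972 members (23.6%), and in 150 (5.05%) the upstream site was also paired with a site 1 nt downstream, as in F09E5.8. Of these 150, 63 moved downstream in PRCC(null) (42%) and 36 in PRCC(I371F) (24%), against 531 (23.4%) and 319 (14.0%) of the 2271 members with no other event at either site. Their mean use of the less-used site was 0.982% ± 0.124 (SD, n = 3) in the control, 2.16% ± 0.0452 in PRCC(I371F) and 2.61% ± 0.245 in PRCC(null). PSI of events that share a site is not independent, and no test was made between these classes.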
